A study of Homo sapiens with 6 samples.

Results

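Shared intergenic H3K27ac regions are stretches of acetylated chromatin that lay away from every protein-coding gene and were called in both H3K27ac libraries of the study. They were selected on the measured peak lists: rows of the PKM2-KD list on chromosomes 1 to 22, with a width under 2500 bp and no less than 4 times that of the narrowest row (113 bp), that touched an NC row of no less than 2 times the narrowest NC width and lay outside every protein-coding gene span and more than 5 kb from every gene end. The rule kept 5697 regions out of 28212 PKM2-KD rows of that width and 208488 PKM2-KD rows of any width. Of the rows of that width, 8566 lay between genes, and 2869 of these touched no wide NC row. The word intergenic refers to protein-coding genes only, since 1857 of the 5697 regions (32.6%, Wilson 95% interval 31.4 to 33.8) overlapped the span of a non-coding RNA gene.

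The study profiled MDA-MB-231, a mesenchymal triple-negative breast cancer line, by CUT&Tag, in which an antibody tethers a transposase to chromatin and the cut fragments are sequenced. The 6 libraries were NONO in NC cells and in NONO knockdown cells (NONO-KD), H3T11ph in NC and in PKM2 knockdown cells (PKM2-KD), and H3K27ac in NC and in PKM2-KD cells. The labels give the NC cells as WT. The study's methods describe both transient siRNAs and lentiviral short hairpin RNAs against NONO and PKM2, and which of these was used for CUT&Tag is not given in the sources used here. Each group held 1 library, so differences between conditions have no replicate check and carry no p-value. The H3K27ac lists differed in size, with 556239 rows in NC and 208488 in PKM2-KD, and heights in NC could be recovered only with a factor of 0.521 that PKM2-KD did not need. Whether both were called with the same settings is not given in the sources used here, so effects of the knockdown and of the processing cannot be told apart.

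H3K27ac is acetylation of histone H3 on a lysine of its tail, and it marks active promoters and active enhancers. Away from genes it is read mainly as a mark of enhancers, which bind transcription factors and act on promoters over long distances, often several together in a cluster. In invasive breast cancer lines such elements are known to be rich in sites for AP-1, the FOS and JUN dimer. H3T11ph is phosphorylation of a threonine of the same tail, one of the reactions ascribed to nuclear PKM2, and NONO is an RNA- and DNA-binding protein of paraspeckles.

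Part of the regions held the start of a long non-coding RNA (lncRNA) gene, and these are the places where sequence can be shown. The RefSeq promoter table (GRCh38.p14) gives 300 bases for each gene, 250 before its start and 50 after. Of 12917 lncRNA windows, 265 touched a shared intergenic region and 166, from 162 genes, lay whole inside one of 149 regions. The AP-1 heptamer TGANTCA, searched on both strands, stood in 50 of the 166 windows (30.1%, 23.7 to 37.5), against 7.71% of all 35116 promoter windows in the table and 10.1% of the 12751 lncRNA windows that did not lie inside these regions. The difference from those lncRNA windows was 19.996 percentage points (Newcombe 95% interval 13.5 to 27.4). Inside regions within 1 kb of a protein-coding gene end, shared between the same lists, 21 of 529 lncRNA windows held it (3.97%), which is 26.2 points fewer (19.4 to 33.6). Inside shared regions within gene bodies the share was 25.7% of 101 windows, a difference of 4.38 points whose interval of -6.95 to 14.9 includes 0. The windows shown are examples, 3 chosen by H3K27ac fold from different regions and 3 further ones chosen by fold among those with a heptamer. The choice did not cover every chromosome, so they are no ranking of all 166 windows. They are given on hg38 and 5′ to 3′ on the strand of each gene, with every match to TGANTCA in capitals.
LOC105376373, chr10:4671281-4671580, plus strand: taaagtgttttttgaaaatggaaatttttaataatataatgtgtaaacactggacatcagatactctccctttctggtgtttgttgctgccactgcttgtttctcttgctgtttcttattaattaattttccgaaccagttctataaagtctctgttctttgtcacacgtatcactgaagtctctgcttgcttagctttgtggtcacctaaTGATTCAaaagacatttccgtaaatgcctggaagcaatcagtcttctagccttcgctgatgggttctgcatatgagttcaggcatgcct
LOC124906269, chr3:115790851-115791150, plus strand: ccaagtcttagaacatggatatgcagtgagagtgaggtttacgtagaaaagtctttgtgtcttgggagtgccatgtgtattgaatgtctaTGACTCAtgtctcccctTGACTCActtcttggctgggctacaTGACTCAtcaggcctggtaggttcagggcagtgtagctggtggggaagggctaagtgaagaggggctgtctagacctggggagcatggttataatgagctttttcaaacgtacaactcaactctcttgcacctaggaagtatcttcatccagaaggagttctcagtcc
LOC124903147, chr13:31045852-31046151, plus strand: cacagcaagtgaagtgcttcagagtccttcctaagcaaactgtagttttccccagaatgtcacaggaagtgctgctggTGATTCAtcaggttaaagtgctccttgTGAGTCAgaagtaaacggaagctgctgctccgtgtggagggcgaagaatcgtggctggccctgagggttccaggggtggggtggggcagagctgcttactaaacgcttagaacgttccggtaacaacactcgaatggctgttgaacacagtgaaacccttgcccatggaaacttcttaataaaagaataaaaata
MANCR, chr10:4678021-4678320, minus strand: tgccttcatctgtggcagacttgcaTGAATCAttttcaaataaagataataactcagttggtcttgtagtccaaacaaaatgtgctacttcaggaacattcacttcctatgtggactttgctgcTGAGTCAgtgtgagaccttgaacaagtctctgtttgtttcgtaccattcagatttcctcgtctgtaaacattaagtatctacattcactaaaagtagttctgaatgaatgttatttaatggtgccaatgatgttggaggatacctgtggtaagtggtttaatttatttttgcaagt
LOC105374721, chr5:34585588-34585887, plus strand: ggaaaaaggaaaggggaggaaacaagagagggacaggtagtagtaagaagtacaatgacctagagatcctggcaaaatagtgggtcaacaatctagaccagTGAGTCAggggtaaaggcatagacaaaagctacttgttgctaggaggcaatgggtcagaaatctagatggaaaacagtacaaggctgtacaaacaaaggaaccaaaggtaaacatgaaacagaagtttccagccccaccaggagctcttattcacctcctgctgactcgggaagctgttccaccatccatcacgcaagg
CYTOR, chr2:87455177-87455476, plus strand: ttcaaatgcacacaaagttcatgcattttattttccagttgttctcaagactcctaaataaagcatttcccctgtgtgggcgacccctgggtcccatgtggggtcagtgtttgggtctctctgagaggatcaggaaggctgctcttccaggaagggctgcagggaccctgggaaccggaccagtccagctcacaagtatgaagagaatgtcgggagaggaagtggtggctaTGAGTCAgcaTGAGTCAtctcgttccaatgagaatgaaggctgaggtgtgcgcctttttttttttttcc

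The window of LOC124906269 held 3 heptamers, all before the gene's start, and the H3K27ac summit lay at base 155 of the window, just downstream of the last of them. For LOC124903147 the summit lay at base 134, with heptamers from bases 79 and 106. For LOC105376373 it lay at base 299, with the heptamer from base 212. For MANCR, LOC105374721 and CYTOR the summit lay outside the window. Whether heptamers stood at summits was not tested over the regions. LOC124903147, MANCR and CYTOR held 2 each, and LOC105376373 and LOC105374721 held 1 each. CYTOR is a cytoskeleton-linked lncRNA and MANCR a lncRNA described in triple-negative breast cancer. Some other motifs differed too from lncRNA windows near gene ends or elsewhere, in directions that depended on the comparison. The SP and KLF hexamer GGGCGG stood in 39.2% of the 166 windows and 45.0% of all promoter windows. It was 31.7 points less frequent than in the lncRNA windows in regions near gene ends (70.9%, interval -39.7 to -23.1) and 13.8 points more frequent than in lncRNA windows elsewhere (25.3%, interval 6.70 to 21.5). The ETS heptamer CCGGAAG stood in 12.7% and in 10.3% of all windows. It differed by -11.7 points (-17.4 to -4.88) from windows near gene ends and by 6.92 points (2.67 to 12.8) from lncRNA windows elsewhere. The TEAD hexamer GGAATG stood in 18.7% (14.0% of all windows) and the E-box CANNTG in 72.3% (68.7%). Both were more frequent than near gene ends, by 7.71 points (1.74 to 14.7) and 12.6 points (4.22 to 20.1), while their differences from lncRNA windows elsewhere, 1.55 and -2.64 points, had intervals that include 0. For the RUNX hexamer TGTGGT (13.9%, against 13.1% of all windows) both intervals include 0. Against lncRNA windows in shared regions within gene bodies, none of these motifs separated the regions. The differences were 1.53 (SP and KLF), 3.74 (ETS), -2.12 (TEAD), 5.95 (E-box) and -0.996 points (RUNX), all with intervals that include 0. Of 24 lncRNA windows inside unshared intergenic regions, 3 held the AP-1 heptamer, 8 the ETS and 8 the RUNX motif. Differences from these 24 were not tested. These matches are letters in a window and no record of factor binding. Windows of neighbouring genes can share bases, and median GC content was 55% in the 166 windows against 66.3% in the lncRNA windows near gene ends.

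The regions had a median width of 796 bp. Heights are given as fragments stacked at the summit, recovered as whole numbers from the deposited fold and p-values. At the summit the median height was 43 fragments in PKM2-KD (quartiles 26 and 77) and 39 in the strongest touching NC row (quartiles 23 and 69). The deposited fold, which is the summit height over the local background with 1 added to each, had a median of 16.5 in PKM2-KD. An NC row covered a median of 75.6% of each region, and the nearest NC summit lay a median of 72 bp from the PKM2-KD summit. Regions between genes that touched no wide NC row were lower, with a median of 17 fragments and a fold of 8.13, which follows from the rule and is given as a description.

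The NC summit can lie outside the region, in which case its height belongs to a neighbouring stretch of the same NC row. The rule needed a row in both lists, so the ratio of heights describes the regions and supports no change. PKM2-KD was at least 1.5 times NC in 1618 of 5695 regions with both heights (28.4%), against 30.5% of all 18988 shared rows. NC was at least 1.5 times PKM2-KD in 831 (14.6%), against 13% of all shared rows. The other 3246 regions (57.0%) lay within 1.5 times of each other, and the median log2 ratio was 0.19. Both shares were near the background. The plot of summit heights shows each region in both libraries.

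**Figure D1:**
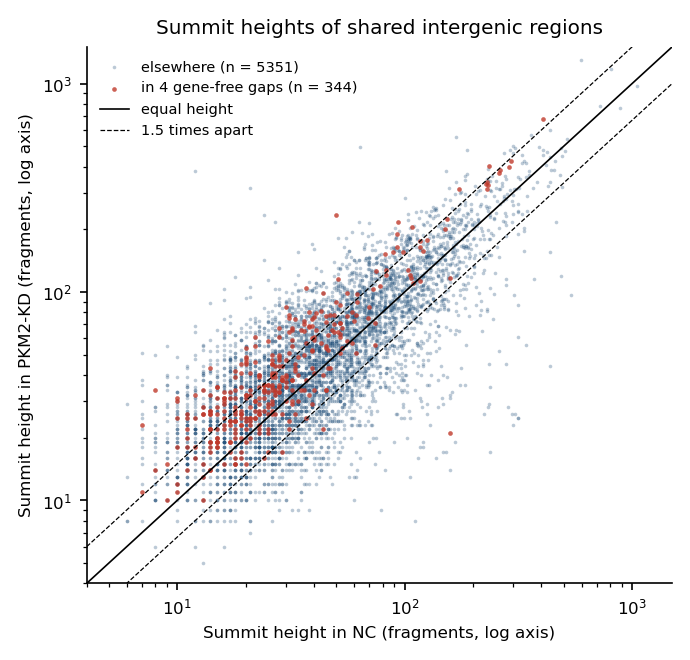
Summit height in NC against PKM2-KD, in fragments on log axes, for the 5695 shared intergenic regions with both heights; the solid line marks equal height and dashed lines mark 1.5 times. 57.0% of the regions lie between the dashed lines, and the 344 regions in 4 gene-free gaps (red) have a median log2 ratio of 0.46, against 0.17 elsewhere.

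The highest fold of all stood in MANCR on chromosome 10. The region chr10:4670784-4672658 had a fold of 662 and 1295 fragments in PKM2-KD against 597 in NC, and it lay between KLF6, a zinc-finger transcription factor gene 886 kb to its left, and AKR1E2, an aldo-keto reductase gene 152 kb to its right. It overlapped rows of NONO NC and of H3T11ph PKM2-KD. The neighbours chr10:4673680-4675130 (552 against 168 fragments) and chr10:4675307-4676993 (479 against 189) ranked 3 and 4 by fold and also overlapped NONO NC. All 3 were more than 2 times as high in PKM2-KD, with ratios of 2.17, 3.29 and 2.53. They were picked by the PKM2-KD fold, so these ratios are only a description.

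The second highest, chr3:115790725-115791213, with 601 fragments in PKM2-KD and 438 in NC, is the region of LOC124906269 shown above, 11.2 kb from LSAMP, a neuronal adhesion gene, and 69.2 kb from GAP43, a growth-cone protein gene. It overlapped both H3T11ph lists and neither NONO list. At chr2:150644171-150645786, 156 kb from RND3, the heights were 446 and 437 fragments. It overlapped none of the other 4 lists.

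The region chr10:79330900-79332388 lay between ZMIZ1, a transcriptional co-regulator gene, and PPIF, which encodes a mitochondrial cyclophilin, with 379 fragments in PKM2-KD and 152 in NC. At chr11:128210117-128210873 in LINC02098, 248 kb from ETS1, a transcription factor gene of invasive cells, the heights were 367 and 188, and both H3T11ph lists had a row. At chr5:106399370-106400118, 977 kb from EFNA5, an ephrin ligand gene, they were 364 and 483. At chr18:11324461-11325763, 175 kb from PIEZO2, a mechanosensitive ion channel gene, they were 361 and 184, and NONO NC and both H3T11ph lists had a row. Of the 10 highest, 8 were higher in PKM2-KD than in NC and 2 were lower. The 10 were ranked by the PKM2-KD fold, which itself favours a PKM2-KD excess, so this tally is only a description. From the lowest to the highest regions by PKM2-KD height, the median log2 ratio of PKM2-KD to NC was -0.19, 0.19, 0.35 and 0.34.

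The widest region, chr6:1285133-1287618, spanned 2486 bp at 24.5 kb from FOXQ1, a forkhead gene linked to mesenchymal change, with 73 fragments in PKM2-KD and 23 in NC. The next, chr7:130914904-130917385, lay in LINC-PINT with 218 and 191. The fifth, chr10:33155274-33157747, 19.7 kb from NRP1, a receptor for semaphorins and VEGF, had 223 and 171. At the other end of the rule, the region closest to a gene lay 5.001 kb from TAGLN2 (chr1:159912280-159913110, 52 and 27 fragments). The most distant lay 3595 kb from a gene, at chr22:11932841-11933349, with 20 and 11.

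Values on both sides of the limits in the rule are given as a description. The 557 regions just above the lower width limit had a median fold of 11.9, and the 606 rows just below it that met the rest of the rule had 11.4. At the upper limit 17 regions just inside had 33.2 and 25 rows just outside had 38.4. The 119 regions in the first kb past the distance limit had 15.7 and the 124 rows in the last kb before it had 16.0. The 1590 intergenic rows that touched only narrower NC rows had 9.22.

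The regions were densest close to genes. There were 5.98 per Mb of length between genes (Poisson SE 0.26) at 5 to 10 kb from a gene end. The density was 5.60 (0.179) at 25 to 50 kb, 3.56 (0.111) at 100 to 250 kb and 1.62 (0.0649) beyond 500 kb. Unshared rows fell in the same order to 250 to 500 kb, from 3.05 to 0.938 per Mb, and then stood at 1.27 beyond 500 kb. The median distance was 60.6 kb, with quartiles of 22.4 and 173 kb. Height changed little with distance, from a median of 42.5 PKM2-KD fragments at 5 to 10 kb to 38 beyond 500 kb. The share of intergenic rows that were shared was 66.2% at 5 to 10 kb and 56.0% beyond 500 kb, against 67.3% of all rows of this width. By chromosome the density ran from 1.61 per Mb on chromosome 16 to 8.08 on chromosome 10, followed by 6.45 on chromosome 19. Of the 521 regions on chromosome 10, 160 lay in 1 long gap between genes that spans the centromere. On chromosome 19 this held for 51 of 124. The longest gaps between genes on chromosomes 7, 13, 14, 15, 16, 17 and 21 held no region. How much of the length between genes can be aligned to was not tested. The fall of density with distance and the densities by chromosome carry that limit.

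**Figure D2:**
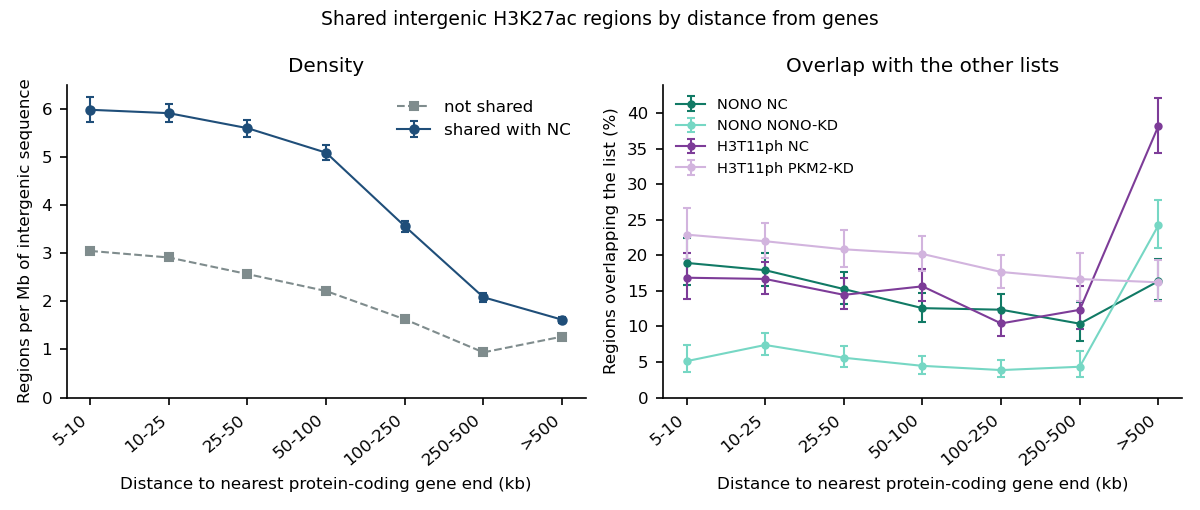
Shared intergenic regions by distance to the nearest protein-coding gene end in kb: density per Mb with Poisson standard errors (left, unshared rows dashed) and percent overlapping each of the other 4 lists with Wilson 95% intervals (right). Density falls from 5.98 to 1.62 per Mb of length between genes. Overlap with H3T11ph NC and NONO-KD stands at 38.2% and 24.2% beyond 500 kb.

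The 4 other lists were not used by the rule, so overlaps with them could be compared. NONO NC rows overlapped 844 regions (14.8%, 13.9 to 15.8), against 15.7% of all rows of this width. NONO-KD rows overlapped 416 (7.30%, 6.65 to 8.01), against 5.99%. H3T11ph NC rows overlapped 968 (17.0%, 16.0 to 18.0), against 13.8%, and H3T11ph PKM2-KD rows 1123 (19.7%, 18.7 to 20.8), against 16%. In all, 3422 regions (60.1%) overlapped none of the 4, against 52.05% of shared regions near gene ends, 63.2% in gene bodies and 71.5% of unshared intergenic rows. Another 41 (0.720%) overlapped all 4, against 0.743% near gene ends. Both H3T11ph lists overlapped 378 regions (6.64%), against 7.37% near gene ends and 4.58% in gene bodies. The H3T11ph NC list alone overlapped 590 (10.4%), against 12.3% near gene ends and 7.51% in gene bodies. The H3T11ph PKM2-KD list alone overlapped 745 (13.1%), against 14.3% and 12.8%. For NONO, the NC list alone overlapped 727 (12.8%), against 19.8% near gene ends and 14.2% in gene bodies. The NONO-KD list alone overlapped 299 (5.25%), against 4.03% and 3.21%, and 6.59% of unshared intergenic rows. In all, NONO-KD overlapped 8.47% of unshared intergenic rows, more than the 7.30% of these regions. The other lists overlapped fewer unshared rows, 10.5% for NONO NC, 12.1% for H3T11ph NC and 9.48% for H3T11ph PKM2-KD. Intervals cover counting error only, since each list came from 1 library.

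NONO NC rows were less frequent at these regions than near gene ends, where they overlapped 22.2% of 4982 shared regions within 1 kb of a gene end. The difference was -7.34 points (-8.82 to -5.87), and it lay between -8.89 and -3.35 points in each of 3 width bands. Counted within 200 bp at the summit it was -3.13 (-4.30 to -1.97), and with NONO rows at least 2 times the narrowest width it was -0.181 (-0.587 to 0.211). For H3T11ph the differences from gene ends were smaller, -2.70 (-4.18 to -1.23) in NC and -1.91 (-3.45 to -0.368) in PKM2-KD. Within 200 bp at the summit they were 0.533 (-0.673 to 1.73) and 1.19 points (-0.0708 to 2.45). Both of these summit intervals include 0. Against 6392 shared regions inside gene bodies, the difference for NONO NC was -1.05 points (-2.33 to 0.240), an interval that includes 0. The intergenic regions overlapped H3T11ph NC more often than those in gene bodies, 17.0% against 12.1%, a difference of 4.90 points (3.64 to 6.16). Part of these overlaps stood in a small number of places.

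Those places were 4 long gaps between neighbouring protein-coding genes. The longest gene-free gap was taken on each chromosome, after the values by distance had been seen, and 344 of the 375 regions in these gaps lay in 4 of them, each of which spans a centromere. Whether fragments placed there align to a single position was not tested, and the values below carry that limit. The gap from ZNF37A to ZNF33B on chromosome 10, 4.42 Mb long, held 160 regions. A gap on chromosome 5 held 76, that from LINC02798 (listed as protein-coding in the RefSeq table) to H3-7 on chromosome 1 held 57, and that from ZNF254 to UQCRFS1 on chromosome 19 held 51. ZNF37A, ZNF33B and ZNF254 encode zinc-finger proteins and UQCRFS1 a subunit of respiratory complex III.

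In the 4 gaps, H3T11ph NC rows overlapped 213 of 344 regions (61.9%), against 755 of 5353 elsewhere (14.1%), a difference of 47.8 points (42.5 to 52.9). NONO-KD rows overlapped 139 (40.4%) against 277 (5.17%), a difference of 35.2 points (30.1 to 40.5). NONO NC rows differed by 7.44 points (3.28 to 12.2), 21.8% against 14.4%. H3T11ph PKM2-KD rows did not separate the places, with 18.6% against 19.8% and a difference of -1.18 points (-5.09 to 3.39). The 4 gaps thus held 33.4% of all overlaps with NONO-KD and 22.004% of those with H3T11ph NC, with 344 of the 5697 regions.

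The gaps were not alike. On chromosome 10 the share overlapping H3T11ph NC was 52.5%, with 6.25% for H3T11ph PKM2-KD. On chromosome 5 these shares were 72.4% and 35.5%, on chromosome 1 they were 63.2% and 21.1%, and on chromosome 19 they were 74.5% and 29.4%. NONO-KD rows overlapped 23.1% on chromosome 10 and 51.3%, 57.9% and 58.8% on chromosomes 5, 1 and 19. Of the regions with a NONO-KD row in the gaps, 74.8% also had an H3T11ph NC row, against 39.4% elsewhere.

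Heights were lower in the 4 gaps, with medians of 35 PKM2-KD and 26 NC fragments against 44 and 40 elsewhere, and median log2 ratios of PKM2-KD to NC of 0.46 against 0.17. Local background in PKM2-KD was higher there, a median of 1.91 fragments against 0.956, and its part in the overlaps was not tested. Among all 5697 regions, overlap with every list rose with that background. From below 0.9 fragments to 20 or more, overlap with H3T11ph PKM2-KD went from 12.3% to 51.5%, with H3T11ph NC from 8.69% to 37.4%, with NONO NC from 10.4% to 26.2% and with NONO-KD from 3.35% to 16.5%. Regions beyond 500 kb from a gene but outside the 4 gaps (288) overlapped H3T11ph NC in 10.1% (7.10 to 14.1) and NONO-KD in 5.21% (3.18 to 8.41), against 14.3% and 5.17% of regions up to 500 kb outside the gaps.

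Without the longest gap of each chromosome the shares were 14.0% for H3T11ph NC, beside 12.1% in gene bodies, and 5.15% for NONO-KD. The difference from gene ends was then -5.64 points (-7.09 to -4.19) for H3T11ph NC. For NONO-KD it went from 0.879 (-0.0854 to 1.84) to -1.28 (-2.19 to -0.375).

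**Figure D3:**
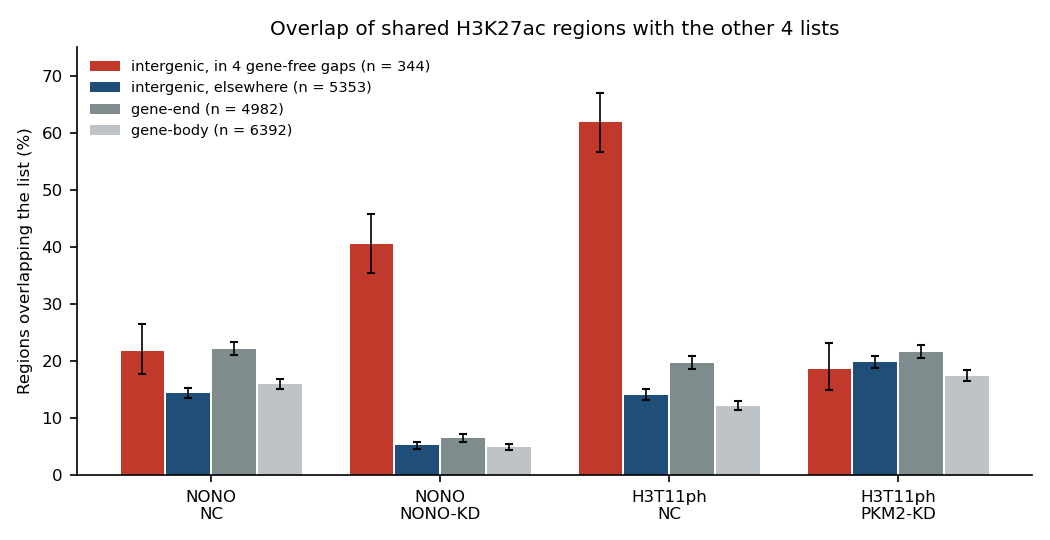
Percent of shared H3K27ac regions that overlap a row of each of the other 4 lists, with Wilson 95% intervals, for intergenic regions in 4 gene-free gaps, intergenic regions elsewhere, regions within 1 kb of a gene end and regions inside gene bodies. In the 4 gaps 61.9% overlap H3T11ph NC and 40.4% NONO-KD, and elsewhere 14.1% and 5.17%.

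Overlap also rose with H3K27ac height. Among the 1434 lowest regions (5 to 26 PKM2-KD fragments) 8.23% overlapped H3T11ph PKM2-KD and 11.1% NONO NC, and among the 1423 highest (78 to 1295 fragments) 35.5% and 20.6% did. Higher regions were also wider, with a median of 1098 bp against 618 bp, so that they offer more bases to overlap. The 41 regions in all 4 lists had a median of 110 PKM2-KD and 72 NC fragments. Several of the 41 lay in a single chain between ZNF383 and ZNF875, described below, with a median local background of 22.96 fragments. The highest fold among the 41 was chr9:111958011-111960364, 22.6 kb from UGCG, the gene of ceramide glucosyltransferase, with 360 and 276 fragments.

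Many regions had a neighbour close by. Joined where the gap to the next was no more than 12 to 13 kb, they formed 3479 chains, and 3363 regions (59.0%) had another within that distance. Of these chains 129 held 5 or more regions, 876 in all. Within 5 kb the share was 49.6%. These shares were not computed for other rows, so whether they exceed a background was not tested. Whether close neighbours are pieces of the same acetylated stretch was not tested either. Regions in chains of 5 or more had a median of 52 PKM2-KD fragments against 35 for single ones, with median widths of 820 and 767 bp.

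The longest chain, chr11:122137929-122203656, held 21 regions over 65.7 kb in MIR100HG, the host transcript of a microRNA cluster, between BLID and UBASH3B. Its heights ran from 24 to 231 fragments in PKM2-KD (median 49) and from 17 to 280 in NC (median 62), and 10 of 21 were higher in PKM2-KD. Its strongest fold, 89.5, stood at chr11:122171893-122174068, with 180 and 113 fragments. The chain overlapped NONO NC once, NONO-KD 2 times, H3T11ph NC once and H3T11ph PKM2-KD 3 times.

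The second chain, chr1:172897677-172934958, held 16 regions between FASLG and TNFSF18, genes of TNF-family ligands. It peaked at chr1:172909023-172910298 with 782 fragments in PKM2-KD and 724 in NC, the highest of the chain in both. In the same chain chr1:172903649-172904559 had 90 in PKM2-KD and 49 in NC, and 9 of 16 were higher in PKM2-KD.

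Chains of 13 regions lay between MAX, the partner of MYC, and FUT8, a fucosyltransferase gene (8 of 13 higher in PKM2-KD), between OGFRL1 and RIMS1 in LINC00472 (7 of 13), and between KLF14 and MKLN1 in LINC-PINT (10 of 13). In the gap of chromosome 10 there were 2 chains of 15 regions, with 13 and 11 of 15 higher in PKM2-KD. They overlapped H3T11ph NC in 10 and 6 regions and H3T11ph PKM2-KD in none.

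The chain at chr19:37269793-37301011, between the zinc-finger genes ZNF383 and ZNF875, stood apart. All 13 regions were higher in PKM2-KD, with heights of 89 to 568 fragments (median 457) against 51 to 358 in NC (median 66). The 2 medians belong to different regions and give no typical ratio. The region of 457 fragments in PKM2-KD had 329 in NC, and those of 66 in NC had 89 and 102 in PKM2-KD. Rows of NONO NC overlapped 13 of them, NONO-KD 12, H3T11ph NC 10 and H3T11ph PKM2-KD 8. Its median local background was 22.96 fragments, against 0.956 over all the regions, and its part in these values was not tested. Whether fragments of this chain align to a single position was not tested either.

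**Figure D4:**
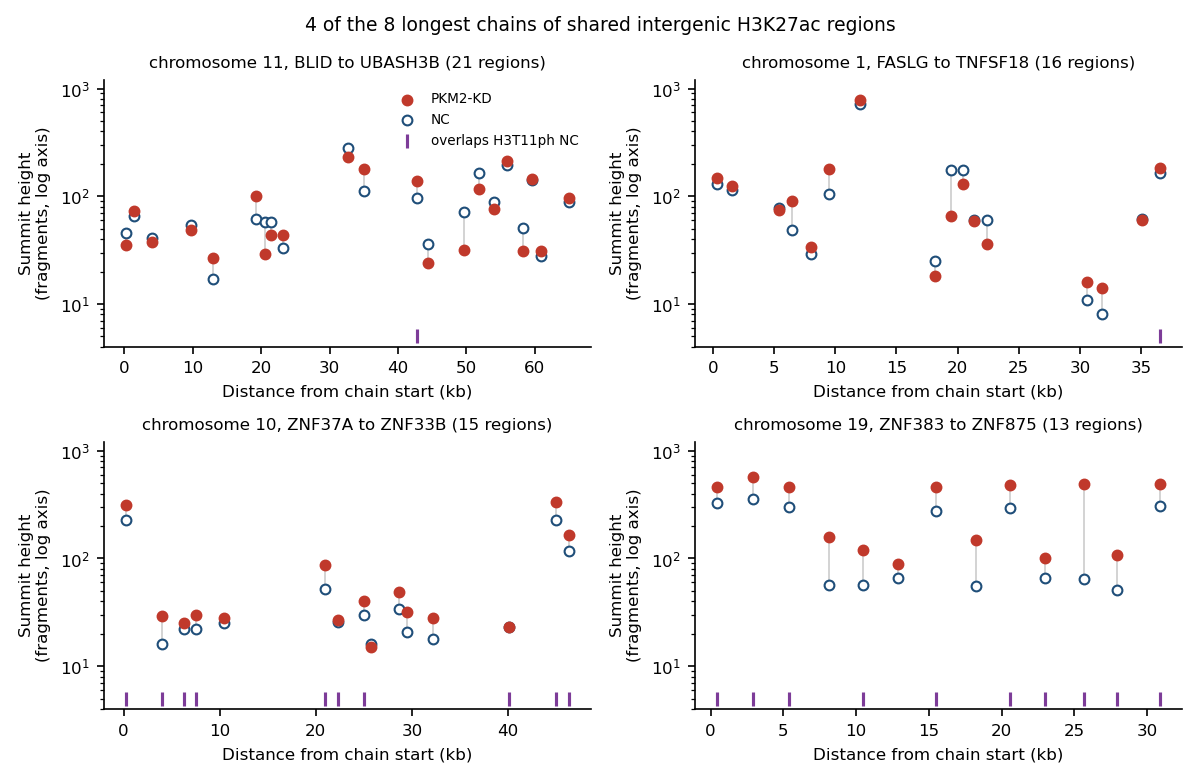
Summit heights in fragments (log axis) of each region along 4 of the 8 chains with most regions, against distance in kb from the start of the chain, for PKM2-KD (filled) and NC (open), with ticks where an H3T11ph NC row overlaps. The chains on chromosomes 11 and 1 cross between PKM2-KD and NC and carry 1 tick each, and those on chromosomes 10 and 19 carry 10 each.

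Non-coding genes covered these regions more often than other rows. Their spans overlapped 32.6% of the regions, against 19.8% of all rows of this width, 22.3% near gene ends, 10.7% in gene bodies and 27.9% of unshared intergenic rows. Nearly all of it was lncRNA, 1839 of 1857 regions. The rule kept regions out of protein-coding spans, where other classes lie, so the classes differ in what they can overlap. The hairpins of 6 microRNAs (MIR5087, MIR4435-1, MIR4449, MIR12118, MIR4645 and MIR1915) overlapped a region. The strongest, MIR4645, lay between SERPINB1 and SERPINB9, with 188 fragments in PKM2-KD and 120 in NC.

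The share of genes with a region close by differed between the lists. Over all 19126 protein-coding genes, 4080 (21.3%) had a region within 100 kb of their span. Of basal receptors and regulators 17 of 22 did (77.3%), of the mesenchymal program 13 of 20 (65%), of inflammatory cytokines 12 of 19 (63.2%) and of the plasminogen system and invasion proteases 8 of 16 (50%). Of lymphoid and myeloid markers only PTPRC, the leukocyte phosphatase CD45, had a region (1 of 15, 6.67%), with 77 and 97 fragments. Hepatocyte and muscle markers had 3 of 14 (21.4%), neuronal markers 4 of 14 (28.6%) and luminal and epithelial genes 8 of 21 (38.1%). Per Mb of length between genes in reach, inflammatory genes had 24.3 regions, AP-1 genes 18.5 and basal genes 17.3. Genes lowered by both knockdowns had 16.3, YAP and TEAD genes 14.9, cell cycle genes 13.4 and mesenchymal genes 11.5. Plasminogen genes had 9.64, luminal genes 8.85, hepatocyte and muscle markers 8.48 and all genes 5.90. Neuronal markers had 3.54 and lymphoid and myeloid markers 1.02. Neighbouring genes of a list can count the same region. No test was made of these lists.

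**Figure D5:**
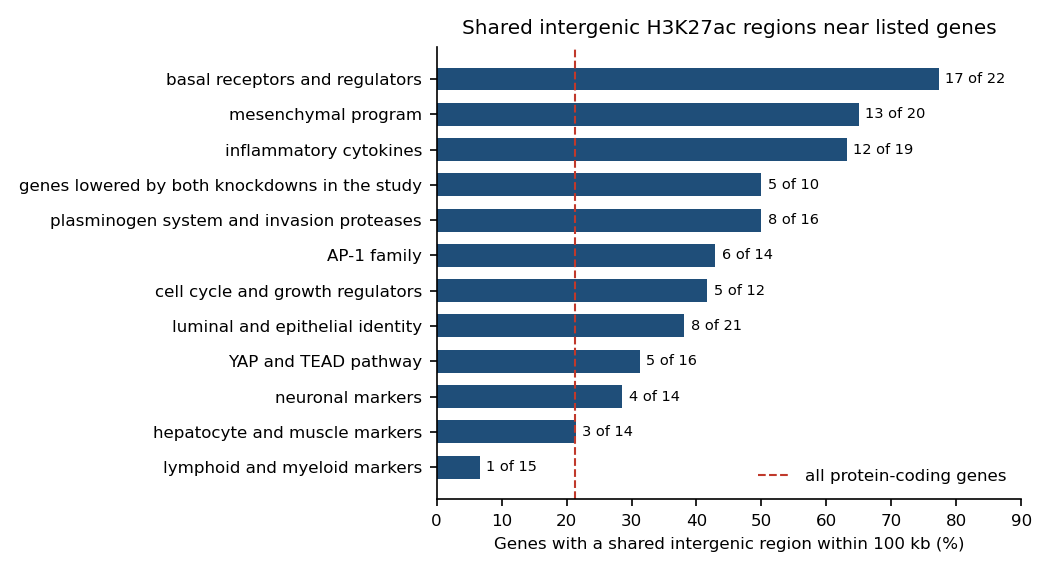
Percent of the genes of each list with a shared intergenic region within 100 kb, with the count beside each bar; the dashed line is the 21.3% of all protein-coding genes. Basal (77.3%), mesenchymal (65%) and inflammatory (63.2%) genes lie highest and lymphoid and myeloid markers (6.67%) lowest.

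Among the inflammatory genes IL1A and IL1B, which encode interleukin-1 alpha and beta and lie side by side, had 10 regions each within 100 kb. The one of highest fold, chr2:112881248-112881842, had 167 fragments in PKM2-KD and 144 in NC. STC1, a secreted glycoprotein gene, also had 10, with 342 and 237 at its highest fold. NFKBIA, the inhibitor of NF-kB, had 7 (123 and 155), TNFAIP3, another brake on that pathway, 5 (244 and 171), CXCL8, a neutrophil chemokine, 4 (168 and 72) and IL6 2 (73 and 55). IL11, LIF and PTGS2 had none.

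The AP-1 family had a region at 6 of 14 genes (42.9%). JUN had 9, with 62 and 42 fragments at the highest fold, and BACH1, a repressor of the wider family, had 5 (85 and 30). FOS had 4 (68 and 82), ATF3 3 (68 and 21) and FOSL1 and FOSL2 1 each. Of the YAP and TEAD pathway, which acts with AP-1 at enhancers, 5 of 16 genes (31.3%) had a region. AMOTL2, an adaptor of the pathway, had 9 (129 and 141), and its targets ANKRD1 had 6 (274 and 254) and CCN1 5 (313 and 264), while CCN2 had none.

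For the mesenchymal program TGFB2, a TGF-beta ligand, had 8 regions (143 fragments in PKM2-KD and 24 in NC at the highest fold), VIM, the vimentin gene, 5 (261 in PKM2-KD, with the NC summit outside the region) and CDH2, N-cadherin, 4 (74 and 27). TWIST1, ZEB1 and HMGA2 had none. Among basal genes ITGB1, the integrin beta-1 chain, had 8 (161 and 40), RUNX1 5 (57 and 33), EGFR 4 (221 and 104), CD44 4 (92 and 49) and TP63 3 (89 and 147). The region of highest fold was the same for CAV1, CAV2 and MET (61 and 83). Of the cell cycle and growth regulators, 5 of 12 had a region (41.7%). MYC had 10 (116 in PKM2-KD, with the NC summit outside the region), and CCND1, cyclin D1, 3 (24 and 20).

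Of the plasminogen genes PLAU, urokinase, had 5 regions (67 and 47), SERPINB2, its inhibitor of type 2, had 2 (105 and 91), and PLAUR, its receptor, 1 (51 and 27). A further list held genes lowered by both knockdowns, chosen in the study on RNA of the same line and so not independent of these cells. Of its 10 genes, 5 had a region (50%), with 5 for RCN1, 4 for ADAMTSL4, 2 for FERMT2 and 1 for CDKN1A among them. Among luminal genes GATA3 had 3 (27 and 11) and EPCAM 3 (46 and 44), while ESR1, FOXA1 and ERBB2 had none.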

How the data were processed

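CUT&Tag peak lists of 6 libraries were used, 1 library per group. The authors trimmed, aligned and called peaks, and the labels' processing notes name FastQC 0.11.9, cutadapt 1.18, SAMtools 1.3.1, MACS2 2.1.1.20160309 and hg38. The aligner, the handling of duplicates and any control library are not given in the sources used here. The deposited lists hold, for each row, a fold ratio at the summit over local background, a −log10 p-value and a −log10 q-value, and a score that is 10 times the −log10 q-value cut to a whole number, and no read totals. The lists held 35720 to 556239 rows on chromosomes 1 to 22.

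Summit heights were recovered as the whole number of fragments that gives both the deposited fold and −log10 p-value of a row. The tolerance was 0.002 in −log10 p-value, and wider for rows where that value was very large. NC heights needed a factor of 0.521 between the 2 kinds of pileup. The common local background was 0.8445 fragments in PKM2-KD and 0.835 in NC, which corresponds to about 7.47 and 7.46 fragments per kb, so heights were compared without further scaling. The NC height is that of the strongest NC row wide enough for the rule that touches a region. Its summit can lie outside the region, and 1 NC row can touch several regions.

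Gene positions, biotypes and promoter windows came from RefSeq GRCh38.p14, matched by position. Overlap meant 1 bp or more. Shares carry Wilson 95% intervals and differences Newcombe 95% intervals, for counting error only, and no p-value was computed between libraries. Python 3.11.15, numpy 2.4.6, pandas 2.3.3, scipy 1.17.1 and matplotlib 3.10.9 were used, and the code was tested on simulated lists.

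The regions, gene lists and tests were chosen with earlier results of these data known. Regions named in the text were the 10 of highest fold, the 5 widest, the 5 nearest to and 5 farthest from a gene, the 8 chains with most regions and the highest-fold ones that overlap NONO NC or H3T11ph NC. From each gene list those with most regions were named. Other listed genes, the 4 gaps, the microRNAs and the region in all 4 lists were named after their values were seen. Sequences around summits were planned and promoter windows were shown in their place, because no genome was used here. Some items that these rules name are not reported here.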

Additional observations from a re-analysis of the deposited data

Results flagged for a closer look

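Chromosome X lay outside the rule and outside every comparison above. There 152 of 209 intergenic rows of the same width (72.7%, Wilson 95% interval 66.3 to 78.3) met the rest of the rule, a signal in data that the comparisons do not use. Their median fold was 16.8 and their median width 804.5 bp. NONO NC rows overlapped 6.58% of them, NONO-KD rows 3.29%, H3T11ph NC rows 6.58% and H3T11ph PKM2-KD rows 11.8%. The difference from chromosomes 1 to 22 was not tested.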

How the results depend on the processing

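Of 78 recomputed values for 13 results, 43 stayed within the counting interval of the reported value or, for the number of regions (4967 to 7287 against 5697), within 1.5 times of it, 29 moved further and 6 changed sign, and the cause was not tested. The share of intergenic rows that were shared was 60.4% with −log10 q of at least 5 in all lists, 64.3% with 50% overlap and 85.1% with NC rows of any width. With −log10 q of at least 5, overlaps were 13.9% for NONO NC, 5.86% for NONO-KD and 14.7% for H3T11ph NC, genes with a region 19.1%, and regions in chains 56.7%. Counted in 200 bp at the summit, overlaps were 8.79% for NONO NC, 4.28% for NONO-KD, 11.5% for H3T11ph NC and 13.2% for H3T11ph PKM2-KD. With rows of the other lists at least 2 times their narrowest width, these were 0.983%, 1.91%, 6.02% and 6.48%. Without the longest gene-free gap of each chromosome, NONO-KD was 5.15%, H3T11ph NC 14.0% and overlap with non-coding genes 34.6%. Without rows of local background of 5 fragments or more, the 4 overlaps were 13.4%, 6.23%, 14.7% and 16.6%. These last 2 settings were chosen after seeing the data.

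Differences from gene ends changed as follows. For NONO NC they were -3.13 points at the summit and -0.181 with wide rows. For NONO-KD they were -0.0480 with −log10 q of at least 5 and -1.28 without the gaps. For H3T11ph NC they were 0.533 at the summit (-0.673 to 1.73), 1.04 with wide rows and -5.64 without the gaps. For H3T11ph PKM2-KD they were 1.19 at the summit (-0.0708 to 2.45) and 1.06 with wide rows. Genes with a region were 16.6% at more than 10 kb from gene ends and 12.52% in a 50 kb window, and regions within 5 kb of another were 49.6%. No paired analysis was possible because every condition was profiled in a single library, which also leaves nothing to omit. The share of regions with an AP-1 heptamer at the summit, and its 400 bp alternative, were not run because no genome was used here. Read totals per library are unknown, and depth was gauged only for the H3K27ac lists, from their common local background. Row widths and numbers also differ between lists, so overlaps with different lists cannot be ranked.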
